A study of Mus musculus with 20 samples.

Results

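Ribosome-bound mRNA of mouse oocytes was compared between mid prometaphase I (4 h after meiotic resumption) and late prometaphase I (6 h). The comparison rests on the 2 libraries of the 6 h group and the 2 of the 4 h group, 4 of the 20 libraries of the series, and on all 7543 genes listed in the ribosome-bound table. The series holds 2 kinds of RNA, ribosome-bound and total (input), at 0, 2, 4, 6 and 8 h, with 2 libraries for each kind and time. All groups share 1 genotype and handling: C57BL/6 Zp3-Cre+ RiboTag females of 3 weeks, injected with 5 IU of PMSG, whose oocytes were recovered 44 h later, stripped of cumulus cells, held in prophase I with 1 µM cilostamide and then moved to medium without it. The groups used here differ in time (4 h or 6 h, with 2 h and 8 h as neighbouring steps) and in RNA kind, and each sample pooled 200 oocytes. No group without the Cre or without the tag was used here as a background of the pull-down.

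RiboTag is an allele that adds an HA epitope to a ribosomal protein once Cre has acted, and Zp3-Cre acts in growing oocytes, so an HA pull-down recovers mRNA attached to oocyte ribosomes. A fully grown oocyte is transcriptionally silent, and the first meiotic division is run from stored maternal mRNA. Stored transcripts are taken up by or released from ribosomes largely through their 3' untranslated region (UTR), where the cytoplasmic polyadenylation element (CPE) is bound by CPEB1 and acts together with the polyadenylation signal to set tail length. Prometaphase is the stretch in which the bipolar spindle is built and chromosomes are brought towards its middle before anaphase.

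Values are the deposited CPM multiplied by a library factor (scaled CPM), and changes are differences of log2(value + 1) from limma, given with the model's standard error after ±. A gene passed when its Benjamini-Hochberg adjusted p over all 7543 genes was below 0.05. The inferred depth of the 4 libraries was 30524671 to 44943993 reads in listed genes, so a value of 10 stood for 303 to 443 reads. Of 25 oocyte markers 23 were listed, with summed values of 52072 to 60222 in the 4 libraries. Of 27 granulosa and cumulus markers 4 were listed (Serpine2, Cyp19a1, Nr5a2 and Fshr), with sums of 302 and 315 at 4 h and 446 and 451 at 6 h, and the defining Foxl2 and Amh were not among the listed genes. Of 18 blood, stroma and endothelial markers 2 were listed, with sums between 112 and 129. Time ordered the ribosome-bound libraries along the leading principal component (49.1% of the variance), but 4 h replicate 1 was set apart along the next (12.5%) at -35.2, against -4.88 for 4 h replicate 2 and -3.29 and -1.43 at 6 h. Changes without that library are also given for the 5 genes that passed and for some gene lists, but not for every result. Whether the replicates came from different animals or cultures is not in the labels, and p-values therefore measure only the spread between these samples. In pooled oocytes a share of ribosome-bound mRNA is measured, and fewer copies in every oocyte cannot be told apart from loss in some of them.

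Short 3' UTR motifs were searched in the ranked genes, and only genes that held one could be shown. A polyadenylation signal was in 83.6% of all genes with a 3' UTR of 150 bases or more. The windows lie around a motif in the last 150 bases of the 3' UTR. They come from 4 genes that rose and from the 2 highest-ranked genes that were lower at 6 h. Each is 30 bases, 5' to 3' on the transcript's strand, from GRCm38 with GENCODE vM21 3' UTRs; capitals mark a CPE (TTTTAT) or a polyadenylation signal (AATAAA or ATTAAA).
Fpgs, chr2:32682622-32682651, minus strand: tattTTTTATtttttgtaAATAAAtgacaa
Oosp3, chr19:11711845-11711874, plus strand: aacaTTTTATtgtatcactgtgcttctaaa
Tcl1, chr12:105216789-105216818, minus strand: gggaTTTTATgtggttctattttagagata
Pfdn4, chr2:170519044-170519073, plus strand: tgttATTAAAatcggttaaacagtctctgt
Ubb, chr11:62553181-62553210, plus strand: tgttAATAAAggttttgttgcatggtaagc
Tacc3, chr5:33678954-33678983, plus strand: ctgtAATAAAgacagctctgtcatctggcc

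In the Fpgs window a CPE stands just before the polyadenylation signal. Oosp3 holds 5 CPEs in the last 150 bases of its 3' UTR, Fpgs 2 and Tcl1 1. Pfdn4, Ubb and Tacc3 hold none in theirs, only polyadenylation signals.

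Few single genes passed between 4 h and 6 h, judged against a spread estimated over all 10 ribosome-bound libraries. In limma, 5 of 7543 genes rose (0.0663%) and 0 fell (0%); at an unadjusted p under 0.05 there were 824 genes (10.9%), 450 higher (5.97%) and 374 lower (4.96%). The 5 that rose were Fpgs, Oosp3, Tcl1, Pfdn4 and Bcl2l10, each by a factor of 1.76 to 2.18 in the ratio of group means. The step before it (4 h against 2 h) had 53 genes up (0.703%) and 2 down (0.0265%), 0.729% in all. The step after it (8 h against 6 h) had 7 up (0.0928%) and 45 down (0.597%), 0.689% in all; these steps share libraries with the present one. The median size of the change was 0.24 on the log2 scale, while the median difference between replicates was 0.30 at 4 h and 0.23 at 6 h. A change of at least 1 on the log2 scale was seen in 186 of the 7543 genes, 80 higher and 106 lower. Of these 69 and 97 had no overlap between the groups, beside 20.7% and 21.1% of all genes. A change of that size with replicates this close leaves little room for overlap, so the separation adds no support of its own.

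**Figure D1:**
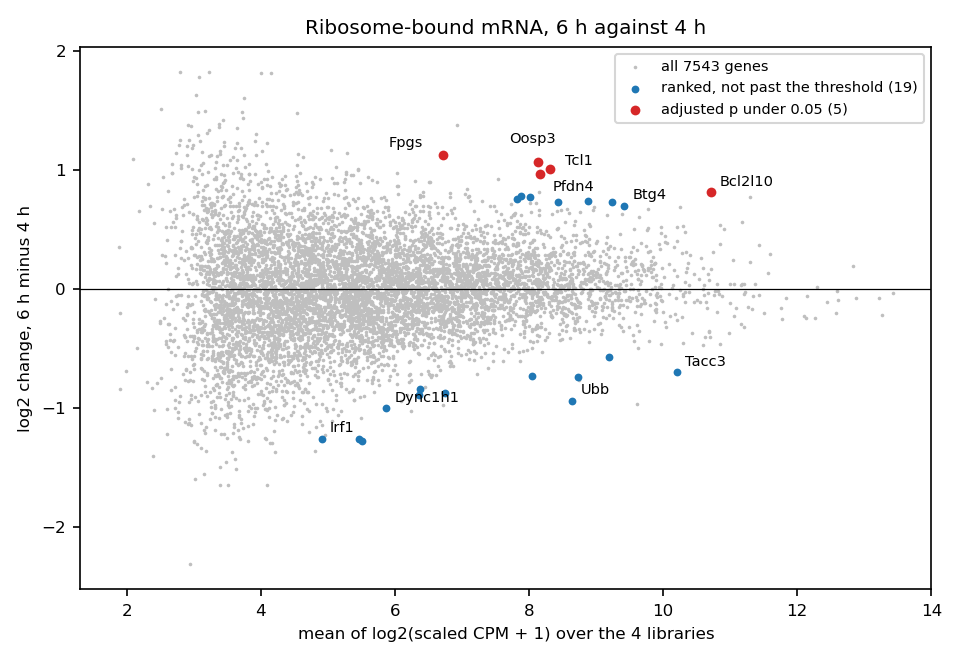
Change of ribosome-bound mRNA from 4 h to 6 h (vertical axis, log2 scale) against the mean log2(value + 1) over the 4 libraries (horizontal axis), 1 point per gene; red points passed the threshold, blue points are the other 19 ranked genes. The 5 red points lie between 0.81 and 1.13, above most genes of like level, and the widest scatter is at low levels.

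Fpgs encodes folylpolyglutamate synthase, which adds glutamate to folates and so keeps them in the cell. Its ribosome-bound values were 80.1 and 61.5 at 4 h and 157 and 152 at 6 h. Both 6 h libraries lay above both 4 h libraries, at means of 70.8 ± 13.1 (SD, n = 2) and 154 ± 3.29. The gene (ENSMUSG00000009566.12, protein coding, GRCm38 chromosome 2, 32682609 to 32704145) rose by 1.13 ± 0.20 (limma adjusted p 0.0396).

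Oosp3 belongs to the oocyte-secreted protein genes. It stood at 207 and 179.6 at 4 h and at 386 and 426 at 6 h, again with no overlap. Oosp3 (ENSMUSG00000055933.13, protein coding, chromosome 19, 11697055 to 11711874) rose by 1.07 ± 0.16 (limma adjusted p 0.0159). Its values at 0 and 2 h ran from 120.0 to 134.

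Tcl1 encodes a co-activator of the kinase AKT that is abundant in oocytes and early embryos. Its values were 207 and 241 at 4 h and 463 and 439.5 at 6 h, without overlap. Tcl1 (ENSMUSG00000041359.14, protein coding, chromosome 12, 105216750 to 105222793) rose by 1.01 ± 0.15 (limma adjusted p 0.0159).

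Pfdn4 is a subunit of prefoldin, which hands unfolded actin and tubulin to the chaperonin CCT. It read 223 and 186 at 4 h and 431 and 370.2 at 6 h. Pfdn4 (ENSMUSG00000052033.13, protein coding, chromosome 2, 170496428 to 170519123) rose by 0.97 ± 0.16 (limma adjusted p 0.0263), with both late libraries above both early ones.

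Bcl2l10 encodes a BCL2 family protein that is highly expressed in oocytes. Its replicates lay close together, at 1255 and 1274 at 4 h and 2217 and 2229 at 6 h. Bcl2l10 (ENSMUSG00000032191.5, protein coding, chromosome 9, 75347758 to 75351632) rose by 0.81 ± 0.14 (limma adjusted p 0.0263).

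All 5 genes read higher at 8 h than at 6 h and higher at 4 h than at 2 h by the group estimates. From 2 to 4 h the changes were 0.38 for Fpgs, 0.57 for Oosp3, 0.44 for Tcl1, 0.58 for Pfdn4 and 0.68 for Bcl2l10. From 6 to 8 h they were 0.35, 0.59, 0.62, 0.33 and 0.42 in the same order. Among these neighbouring changes only that of Bcl2l10 from 2 to 4 h passed (limma adjusted p 0.0252). The others did not, with limma adjusted p of 0.0701 to 0.541. Leaving out any 1 of the 4 libraries ended each of the 5 calls, with limma adjusted p from 0.0603 to 0.357, while the changes stayed between 0.80 and 1.31. Without 4 h replicate 1 they were 1.31 for Fpgs, 1.17 for Oosp3, 0.90 for Tcl1, 1.10 for Pfdn4 and 0.80 for Bcl2l10. In a model with no mean-variance trend 0 genes passed, and with the 4 h and 6 h libraries fitted alone 19 did, 13 up and 6 down, the 5 among them.

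**Figure D2:**
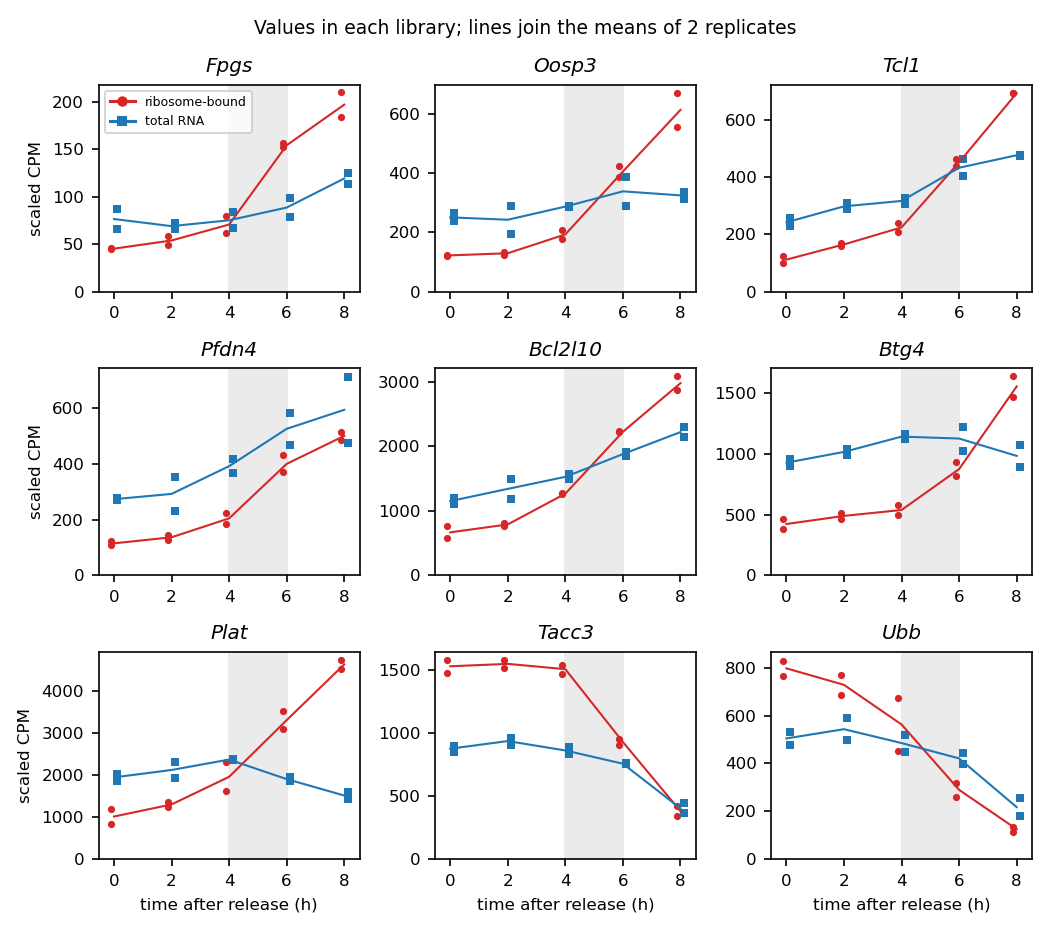
Values in scaled CPM (linear axis) of 9 genes in each library against hours after release, ribosome-bound in red and total RNA in blue; points are libraries, lines join the means of 2 replicates and the shaded band spans 4 to 6 h. The ribosome-bound 6 h points of Fpgs, Oosp3, Tcl1, Pfdn4, Bcl2l10, Btg4 and Plat lie above their 4 h points, and those of Tacc3 and Ubb lie below.

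Relatives of these genes, chosen after their values were seen, went different ways. Of the Tcl1b cluster, Tcl1b1 read 175 and 258 at 4 h and 391 and 359.6 at 6 h, a change of 0.82 ± 0.20 (limma adjusted p 0.120). Tcl1b2, Tcl1b3 and Tcl1b4 also had both 6 h values above both 4 h values, with changes of 0.54, 0.43 and 0.39, whereas Tcl1b5 (0.21) overlapped. These paralogs are similar in sequence, and how reads shared between them were counted is not given in the sources used here. Oosp1 had a change of 0.51 and the related Omt2a and Omt2b had 0.80 and 0.62, each without overlap, while Oosp2 lay lower at 6 h (164 and 218, then 126 and 128.5), a change of -0.57.

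The other prefoldin subunits listed had changes below 0. Pfdn2 (-0.34) and Pfdn6 (-0.85) were lower without overlap, while Pfdn1 (-0.30), Pfdn5 (-0.33) and Vbp1 (-0.11) overlapped, and Pfdn1 and Vbp1 turned to 0.33 and 0.38 when 1 of the 4 h libraries was left out. Tyms, the thymidylate synthase, which uses a folate cofactor, read 107 and 80.8 at 4 h and 49.2 and 46.7 at 6 h, a change of -0.94 ± 0.28 (limma adjusted p 0.223). Other genes of folate metabolism had changes of -0.26 (Mthfd1, lower without overlap), 0.05 (Mthfd1l), 0.31 (Mthfd2) and 0.06 (Shmt2), the last 3 with overlap. Of other BCL2 family members, Bcl2l11, which promotes apoptosis, read 46.2 and 29.9 and then 66.1 and 61.9, a change of 0.77. Bcl2l1 (-0.09), Bcl2l13 (0.14) and Mcl1 (0.95, at 0.921 and 16.4 and then 9.68 and 10.6) overlapped.

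Among the other named genes that were higher, the 7 of smallest p, unnamed gene models left out, did not pass. They were Ccndbp1, Rasa2, Btg4, Mansc1, Serpine2, Foxn2 and Zcchc8, with changes of 0.70 to 0.78 and limma adjusted p of 0.0639 to 0.0926. Btg4, the adaptor that brings the CCR4-NOT deadenylase to maternal mRNA, read 578 and 498 at 4 h and 929 and 821 at 6 h, a change of 0.70 ± 0.14 (limma adjusted p 0.0788). It was higher again at 8 h by 0.83 (limma adjusted p 0.00963). Serpine2, a serine protease inhibitor that cumulus cells also make, read 171 and 185 and then 312.5 and 303, a change of 0.78 ± 0.17. It makes up most of the rise in the granulosa marker sum given above, whose part in this value was not tested. Ccndbp1 read 462 and 474 and then 757.5 and 799, a change of 0.73 ± 0.14 (limma adjusted p 0.0639). The unnamed gene model E330034G19Rik, left out of the ranking, read 729 and 654 and then 1100.0 and 1099, a change of 0.67 ± 0.14 (limma adjusted p 0.0926).

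Lower at 6 h, 0 genes passed in limma, and the 12 named genes of smallest p, unnamed gene models left out, had adjusted p of 0.0623 to 0.127. Ubb, a polyubiquitin gene, read 454 and 671.5 at 4 h and 318 and 261 at 6 h, a change of -0.94 ± 0.18 (limma adjusted p 0.0623). Tacc3, a spindle protein that works with the microtubule polymerase CKAP5, read 1467 and 1540 and then 902 and 952, a change of -0.70 ± 0.13 (limma adjusted p 0.0623). Both groups were apart in each gene, and both genes fell from 6 to 8 h, Tacc3 by 1.30 (limma adjusted p 5.7e-05) and Ubb by 1.21 (0.00307).

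Other genes of the lower ranking also had separate groups. Plce1, a phospholipase C, read 511 and 592 and then 351 and 307, a change of -0.74. Dync1h1, the heavy chain of cytoplasmic dynein, read 97.5 and 68.8 and then 41.2 and 39.7, a change of -1.0. Irf1, an interferon-regulated transcription factor, read 37.5 and 55.0 and then 18.7 and 18.2, a change of -1.26. The remaining 7 were Ifit1bl2, Akr1a1, Larp7, Ippk, Zkscan14, Pdlim2 and Ndufa9, with changes between -1.28 and -0.57 and no overlap, which the naming rule required. Of the unnamed gene models left out, Gm813 read 548 and 569.7 and then 361 and 299, a change of -0.76 ± 0.15 (limma adjusted p 0.0788), and fell by 1.85 from 6 to 8 h (4.2e-06). A330076H08Rik, also left out, read 1231 and 976 and then 475 and 663, a change of -0.96 ± 0.24 (limma adjusted p 0.121).

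Several regulators of the meiotic cell cycle were higher at 6 h without passing. Ccnb1, the cyclin that activates CDK1, read 268 and 252 at 4 h and 391 and 415.5 at 6 h, a change of 0.63 ± 0.15 (limma adjusted p 0.121). Mos, the kinase that switches on MAPK in oocytes, read 200.1 and 254 and then 366 and 349, a change of 0.66 ± 0.17. In both genes the groups did not overlap. Ccna2, cyclin A2, read 91.8 and 97.5 and then 129.9 and 142, a change of 0.51. Cdk1 went the other way, from 105 and 106 to 59.1 and 69.7, a change of -0.71 ± 0.22 (limma adjusted p 0.237).

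Of the M-phase list of 30 measured kinases, phosphatases and cyclins, 18 lay above 0 and 12 below, with a median of 0.10. Without overlap 11 were higher (36.7%, beside 20.7% of all genes) and 3 lower (10%, beside 21.1%). Ccnb2 overlapped (159 and 260.5, then 257 and 310.1), as did Wee2 (-0.13) and Ccnb3 (-0.03).

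Dazl, an RNA-binding protein that helps translate maternal mRNA, read 280.4 and 316 at 4 h and 428 and 529 at 6 h, a change of 0.68 ± 0.15 (limma adjusted p 0.103). Plat, the tissue plasminogen activator, read 2300.0 and 1610.0 and then 3088 and 3516, a change of 0.78 ± 0.17 (limma adjusted p 0.103). Cpeb1, which binds the CPE, read 2489 and 1901 and then 1496 and 1661, a change of -0.46 ± 0.14 (limma adjusted p 0.223). Pabpc1l, the poly(A)-binding protein of oocytes, read 278 and 299 and then 189.9 and 212, a change of -0.52. In all 4 genes the groups were apart. Over the 41 measured RNA-binding and polyadenylation regulators 14 were higher without overlap (34.1%, beside 20.7% of all genes) and 8 lower (19.5%, beside 21.1%). Their median was 0.04, and it lay between 0.06 and 0.12 when 1 library was left out.

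A list of genes described as translated more in oocyte maturation, which holds Ccnb1, Mos, Plat, Btg4, Dazl and Tcl1, had a median of 0.18. It was drawn up from general knowledge with earlier results of these data known, so it is not independent of them. Of its 42 measured members 27 lay above 0 and 15 below. Without overlap 19 were higher (45.2%, beside 20.7% of all genes) and 4 lower (9.52%, beside 21.1%). By the test 1, Tcl1, rose. Members lower without overlap included Zp2 (-0.22) and Lhx8 (-0.23). Orc6, a subunit of the origin recognition complex and also on this list, read 39.2 and 58.0 and then 85.9 and 89.7, a change of 0.87 ± 0.25 (limma adjusted p 0.204). Bub1b, a spindle checkpoint kinase, read 2631 and 2238 and then 3134 and 3127, a change of 0.37. Cdc20 (0.22) and Tpx2 (-0.04) overlapped. After correction for transcript length and GC content the median of the list was 0.08.

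Genes of deadenylation and mRNA decay had a median of 0.13 over 26 measured members, or 0.31 without 6 h replicate 1. That is the 6 h library nearer to 4 h. Relative to the mean of all times, the list's median stood at 0.02 and -0.06 in 4 h replicates 1 and 2, and at 0.07 and 0.20 in those of 6 h. Without overlap 3 of the genes were lower (11.5%, beside 21.1% of all genes) and 11 higher (42.3%, beside 20.7%). Besides Btg4, these included Pan2, the catalytic subunit of a poly(A) nuclease, at 285 and 284 and then 377 and 435, a change of 0.51 ± 0.15. Lsm14a, a protein of mRNA storage granules, had 0.42. Cnot1, the scaffold of the CCR4-NOT complex, read 1193 and 877 and then 712 and 807, a change of -0.43. None of the 26 passed in limma.

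The gene families of protein synthesis and energy supply lay lower at 6 h as groups, with 0 single genes past the threshold and 3 ribosomal protein, 5 mitochondrial ribosomal and 9 respiratory genes lower at an unadjusted limma p under 0.05, beside 4.96% of all genes; the 3 of 51 ribosomal protein genes are close to that share. Of 51 measured cytosolic ribosomal proteins 45 lay below 0 and 6 above, with a median of -0.39 beside 0.00 for all genes. Without overlap 22 were lower (43.1%, beside 21.1% of all genes) and 1 higher (1.96%). Rps4x, of the small subunit, read 22.4 and 39.4 at 4 h and 12.9 and 13.6 at 6 h, a change of -1.11 ± 0.35 (limma adjusted p 0.238). Rpl5, of the large subunit, read 258 and 243 and then 200.3 and 165, a change of -0.46 ± 0.16, and fell by 1.47 from 6 to 8 h (limma adjusted p 0.000137). Ribosomal protein genes have many processed pseudogenes, and how reads shared with them were counted is not given in the sources used here.

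The family's level differed between libraries of the same time. Relative to the mean of all times, the median ribosomal protein gene stood at 0.00 in 4 h replicate 1 and at 0.39 in 4 h replicate 2, and at -0.10 and -0.26 in the 6 h libraries. Both 6 h libraries lay below both 4 h libraries, but the 4 h libraries differed from each other by as much as the groups did. The median change was -0.65 without 4 h replicate 1 and -0.06 without 4 h replicate 2, and it was -0.22 after correction for transcript length and GC content.

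Nuclear genes of the respiratory chain and ATP synthase had a median of -0.36 over 60 members, 47 below 0 and 13 above. Of these 30 were lower without overlap (50%, beside 21.1% of all genes) and 1 higher (1.67%, beside 20.7%). Ndufv1, of complex I, read 71.2 and 26.7 and then 15.9 and 16.9, a change of -1.36 ± 0.39, and Ndufa9, of the same complex, read 79.6 and 57.3 and then 36.0 and 21.2, a change of -1.26 ± 0.31 (limma adjusted p 0.127). The gene higher without overlap was Sdhc, of complex II, at 116 and 96.5 and then 127.9 and 147. The median was -0.47 without 4 h replicate 1 and -0.20 without 4 h replicate 2. Of 44 mitochondrial ribosomal proteins 17 were lower without overlap (38.6%) and 3 higher (6.82%), with a median of -0.31, and Mrps25 read 55.9 and 45.6 and then 24.2 and 23.2, a change of -1.06. The median of this list was -0.36 without 4 h replicate 1 and -0.23 without 4 h replicate 2. The 9 transcripts encoded in the mitochondrion itself had 0 members without overlap in either direction.

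Proteasome subunits were mixed. Of 33 measured, 15 were lower without overlap (45.5%, beside 21.1% of all genes) and 7 higher (21.2%, beside 20.7%). The median was -0.21, or -0.32 without 4 h replicate 1. Relative to the mean of all times, the list's median stood at 0.11 and 0.22 in 4 h replicates 1 and 2, and at 0.04 and -0.18 in those of 6 h. Psmb4, of the core particle, read 91.5 and 79.4 and then 51.9 and 45.2, a change of -0.80 ± 0.28, and Psmd3, of the regulatory particle, read 59.0 and 71.0 and then 110.4 and 95.6, a change of 0.66 ± 0.23. Each had separate groups and neither passed (limma adjusted p 0.265 and 0.279).

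Cytosolic chaperones (48 measured) had 17 lower without overlap (35.4%, beside 21.1% of all genes) and 3 higher (6.25%, beside 20.7%). Their median was -0.20, or -0.09 without 6 h replicate 2. Hspa8, the constitutive HSP70, read 125 and 113 and then 72.6 and 69.7, a change of -0.74 ± 0.20, and Cct3, a subunit of the chaperonin CCT, had -0.65. Dnajb4, a co-chaperone, read 464.5 and 336 and then 670.5 and 585, a change of 0.66. Of 26 aminoacyl-tRNA synthetases 8 were lower without overlap (30.8%) and 0 higher (0%), with no member at an unadjusted limma p under 0.05. Among 50 translation factors 16 were lower (32%) and 8 higher (16%). Eef1d, of the elongation factor complex, read 111 and 103 and then 49.2 and 55.0, a change of -1.03 ± 0.27, whereas Eif2b1, of the exchange factor for eIF2, read 218 and 237 and then 349.8 and 352, a change of 0.63 ± 0.16 (limma adjusted p 0.127).

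**Figure D3:**
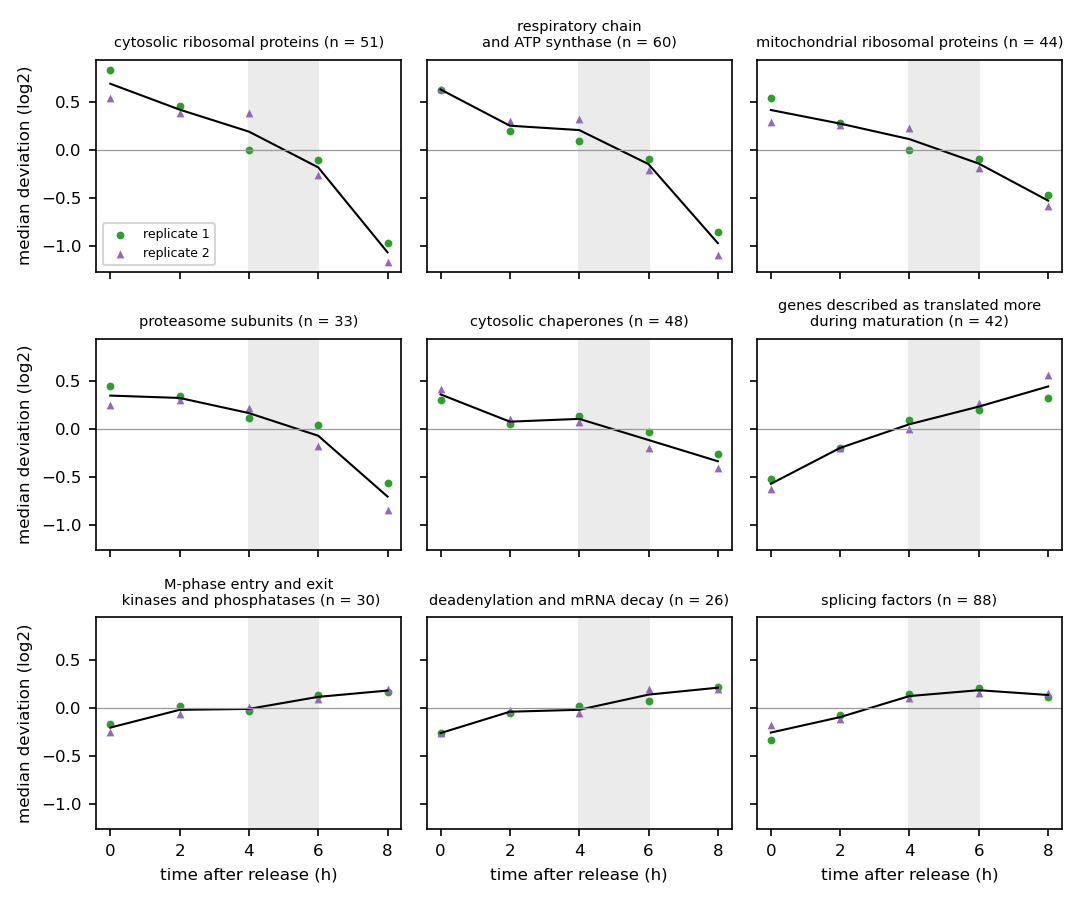
Median deviation from each gene's mean over all times (log2 scale) of 9 gene lists in each ribosome-bound library, against hours after release; points are libraries, lines join the means of 2 replicates and the shaded band spans 4 to 6 h. Cytosolic ribosomal proteins stand at 0.00 and 0.39 at 4 h and at -0.10 and -0.26 at 6 h, so the 4 h libraries are as far apart as the groups are.

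Spindle and chromosome genes were balanced as lists but held members that moved apart. Kinetochore and checkpoint genes had 7 of 38 higher (18.4%) and 10 lower (26.3%) without overlap, and spindle and cytokinesis genes had 7 of 40 (17.5%) and 8 (20%). Over all genes these shares were 20.7% and 21.1%. Sgol2a, the shugoshin that protects centromeric cohesin in meiosis I, read 21.9 and 32.5 and then 43.1 and 59.9, a change of 0.90 ± 0.31. Cep55, a protein of abscission, read 48.3 and 43.4 and then 106.5 and 77.7, a change of 0.98 ± 0.25 (limma adjusted p 0.138). Birc5, survivin of the chromosomal passenger complex, read 403 and 426 and then 325 and 294, a change of -0.42. In all 3 the groups were apart.

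Of the anaphase-promoting complex and its regulators, 3 of 21 were higher without overlap and 3 lower (14.3% each), beside 20.7% and 21.1% of all genes. Fbxo43, the inhibitor also called EMI2 that holds eggs in metaphase II, read 242 and 186 and then 361 and 344, a change of 0.73 ± 0.18 (limma adjusted p 0.120), and Ube2c, the complex's ubiquitin-conjugating enzyme, had 0.54. Of 23 cohesin and condensin genes 7 were higher (30.4%) and 3 lower (13%). Wapl, which releases cohesin, read 1100.0 and 952 and then 1343 and 1362, a change of 0.40, and the condensin subunit Smc4 read 857 and 678 and then 587 and 606, a change of -0.35.

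The replication list had members on both sides, with 13 of 31 lower without overlap (41.9%) and 8 higher (25.8%). Of all genes 21.1% were lower and 20.7% higher. Subunits of the MCM helicase differed, Mcm4 going from 299 and 308 to 411 and 418.5 (0.45) and Mcm5 from 102 and 127 to 73.7 and 67.1 (-0.69). Endoplasmic reticulum genes had 9 of 36 higher (25%) and 11 lower (30.6%). Within 1 complex, the translocon-associated Ssr3 went from 124 and 142 to 229 and 203 (0.70) while Ssr2 was lower without overlap (-0.87). None of these 4 passed in limma (adjusted p of 0.211 or more).

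**Figure D4:**
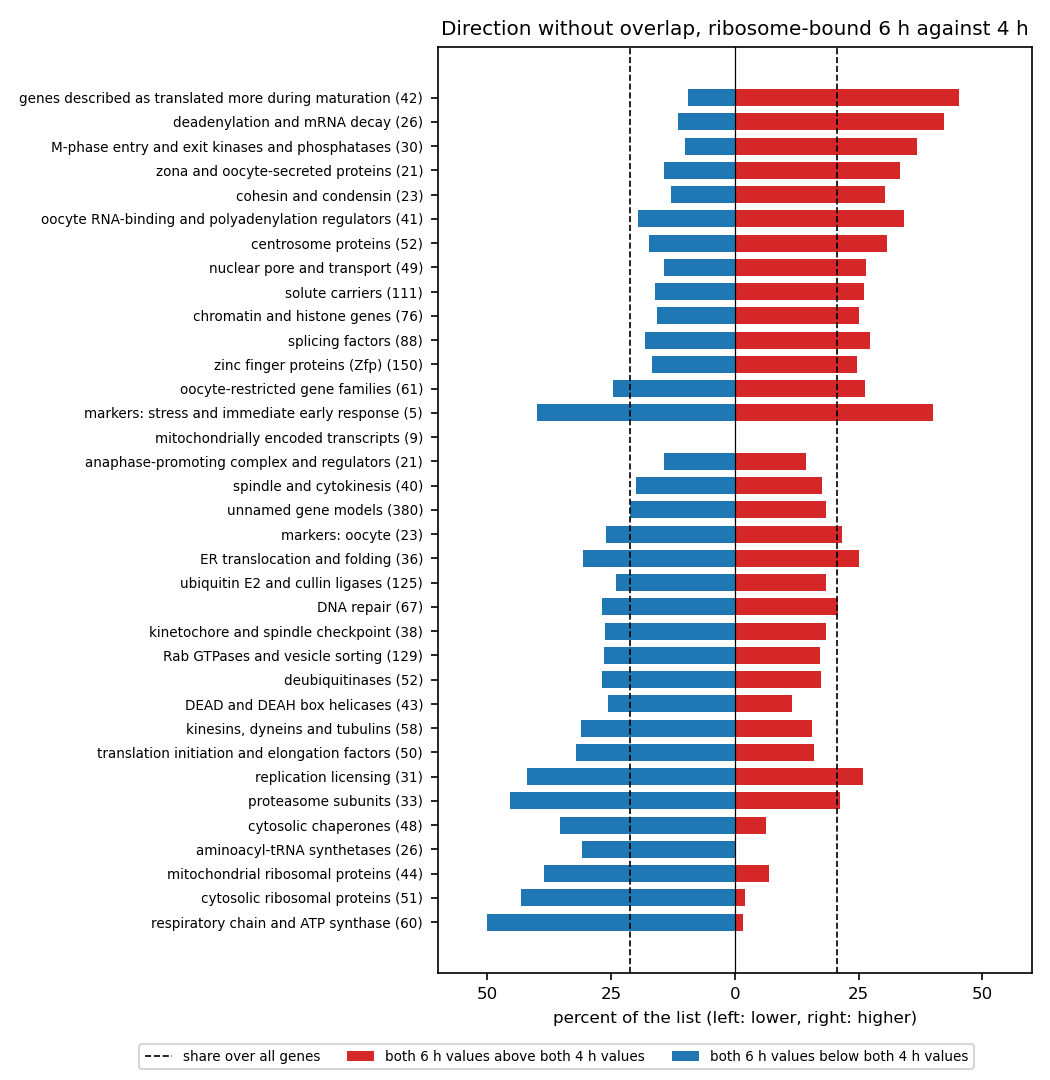
Share of each gene list (percent of its measured genes, number in brackets) whose 2 values at 6 h are both below (left) or both above (right) the 2 values at 4 h; dashed lines mark the shares over all 7543 genes, 21.1% and 20.7%. Respiratory chain, ribosomal protein and proteasome genes reach furthest left, and the translated list, decay genes and M-phase genes furthest right among the lists of 20 genes or more.

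Over the whole table the CPE was more frequent among genes that were higher at 6 h. It was searched as TTTTAT or TTTTAAT on the transcript strand in the last 150 bases of the 3' UTR, in the 6912 genes whose 3' UTR reaches that length, and 27.5% of them held it. Of 1484 such genes higher without overlap 38.1% held it, and of 1403 lower without overlap 19.3% did. Of the 5 genes that rose 4 held it, of the 12 ranked higher 9 did (75%), and of the 11 ranked lower with a long enough 3' UTR 0 did. The polyadenylation signals AATAAA or ATTAAA were in 83.6% of all genes, 88.1% of those higher and 80.5% of those lower.

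Base composition moved with these shares. The median GC content of the 150 bases was 33.3% in the genes higher without overlap and 39.3% in those lower, against 36.7% in all. Among the genes of lowest GC content, when all were ranked into 3 parts of about the same size, 54.1% of the higher, 35.2% of the lower and 46.8% of all genes held a CPE. In the middle part the shares were 32.8%, 23.9% and 26%, and in the highest 13.1%, 7.94% and 10.6%. The higher genes also had longer 3' UTRs, with a median of 1528 bases against 932 in the lower ones and 1302 in all. These strata cover the GC content of the 150 bases only. The shares were not recomputed after the correction for transcript length and GC content, and the part of 3' UTR length was not tested.

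Total RNA of the same times gave no call. In limma 0 of 7917 genes passed (0%), and 351 (4.43%) had an unadjusted p under 0.05, 142 higher (1.79%) and 209 lower (2.64%). Without overlap 15.6% were higher and 16.3% lower. The 5 genes that rose on ribosomes had changes in total RNA of 0.23 for Fpgs, 0.22 for Oosp3, 0.45 for Tcl1, 0.42 for Pfdn4 and 0.30 for Bcl2l10. Tcl1 read 326 and 307 at 4 h and 461 and 403 at 6 h in total RNA, and Bcl2l10 1563 and 1488 and then 1842 and 1914. Oosp3 read 288 and 287 and then 388 and 290.0, and Pfdn4 read 368 and 417 and then 469 and 584.5. These 4 were higher at 6 h in total RNA too, without overlap, whereas Fpgs overlapped.

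Of the 24 ranked genes 22 had the same sign in total RNA, 10 of the 12 higher ones and all 12 lower ones, beside 55.3% of the 7346 genes in both tables. Their changes in total RNA ran from -0.14 to 0.45 for the higher ones and from -0.80 to -0.01 for the lower ones. Selection of poly(A) RNA is not described in the labels, and more RNA and longer tails cannot be told apart in these values. As lists, the median of ribosomal protein genes was -0.02 in total RNA and that of respiratory genes -0.05, while proteasome genes stood at -0.19, close to their -0.21 on ribosomes.

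**Figure D5:**
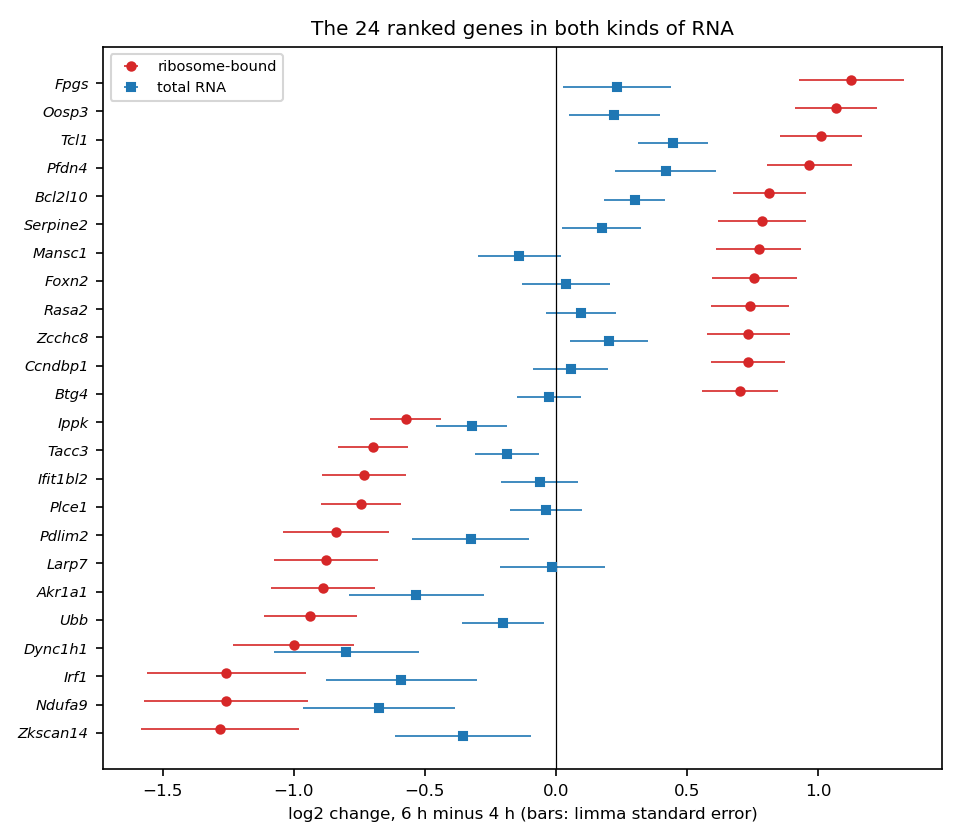
Change from 4 h to 6 h (log2 scale, horizontal axis) of the 24 ranked genes on ribosomes (red circles) and in total RNA (blue squares), with bars for the limma standard error. The 5 genes that rose lie at 0.81 to 1.13 on ribosomes and at 0.22 to 0.45 in total RNA; the 24 genes were chosen by their ribosome-bound values, so a larger change there is part of the choice.

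No gene passed for a ribosome-bound change beyond that of total RNA, by limma's interaction of RNA kind and time over 7346 genes (0 calls, 0%). At an unadjusted p under 0.05 there were 426 genes (5.8%), 268 up (3.65%) and 158 down (2.15%). Lrrc16a ranked first among named genes up in this difference, at 0.95 (limma adjusted p 0.124). Plat came next. It was higher on ribosomes but lower in total RNA (a change of -0.32), and the difference was 1.09 (limma adjusted p 0.150). Its ribosome-bound values at 4 h lay apart, at 2300 and 1610. Without the higher of them, 4 h replicate 1, the difference was 1.35, and the value without 4 h replicate 2 is not given here. Fbxo43 had a difference of 1.00 (limma adjusted p 0.498) and Btg4, whose total RNA changed by -0.03, one of 0.73 (0.575).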

How the data were processed

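RiboTag immunoprecipitates and input RNA from pooled oocytes were sequenced. Per the submitters' processing notes, reads were handled with Trimmomatic 0.36, FastQC, HISAT2 and SAMtools and with HTSeq, limma and edgeR, on mm10. Order, settings, strand and poly(A) selection: not given in the sources used here. The authors deposited a signal per gene, CPM multiplied by a factor per library, in 1 table per RNA kind. Library totals were 968768 to 1052767, and all values were whole multiples of 1 step within 0.01 read, which gave the inferred depths (27571236 to 51714900 reads). The design had assumed CPM; the test on log2 values was kept.

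Groups came from the sample titles, which name the input libraries as such although their descriptions read as for the pull-down. The test was limma 3.58.1 (R 4.3.3) on log2(value + 1), with trend, over all 10 libraries of a kind (genes with a value of at least 1 in 2 libraries, which kept every gene), two-sided. A gene is higher or lower without overlap when both 6 h values lie above or below both 4 h values. Ranked genes were the 12 each way past the threshold by change, then by p, with a mean of at least 20 and no overlap, leaving out unnamed gene models. The naming rule also takes, for each list and direction, up to 3 genes by smallest p, a panel of 12 genes (11 listed, Cnot7 not) and up to 5 genes each way in total RNA and beyond total. Members and lists were chosen with earlier results of these data known. The model was tested on simulated data with known changes. Each run shifted 200 of 7543 genes, all upward. Noise was independent between genes and libraries and no library was set apart, so shares in the real data may differ. The model recovered 37.8% of genes shifted by 1 on the log2 scale and 68.4% of those shifted by 1.5. Of 559 calls 28 were false. A gene that did not pass may therefore still have changed. Whether replicate letters pair libraries is not in the labels. The correlation across genes of the replicate differences at 4 h and 6 h was -0.04, which cannot decide it. The interaction fit treated all libraries as independent, and pairing of input with pull-down was not checked. Of 8114 gene IDs 8103 were found in GENCODE vM21, which gave coordinates and 3' UTRs (longest per gene). Alternatives were other pseudocounts, filters, scalings, models, a length and GC correction and leaving out each library. A few results are not reported here.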

Additional observations from a re-analysis of the deposited data

How the results depend on the processing

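Groups of 2 replicates limit every call. The 5 genes stayed 5 with pseudocounts of 0.5 or 5, with no filter or one of 10, and after median centring, and were 4 after quantile normalization. There were 0 without the mean-variance trend, 19 (13 up, 6 down) with the 4 h and 6 h libraries alone, 6 after the length and GC correction and 5 with that correction and the replicate block. The replicate block alone left 2 (both up, Oosp3 and Tcl1), though whether the letters pair the libraries is not in the labels. Leaving out 1 library gave 0 to 1 calls on ribosomes, 0 to 1 in total RNA (Preb without 4 h replicate 1, Gm14641 without 6 h replicate 2) and 0 to 1 beyond total RNA. Without overlap, 2496 to 2877 genes were higher and 2595 to 2875 lower when 1 library was left out, a looser criterion with fewer values. Calls gained in the 4-library fit included Serpine2, Ubb, Tacc3, Ccndbp1, Rasa2, Btg4, Plce1 and Plat.

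Genes with small or overlapping changes turned direction when 1 library was left out, with ranges of -0.66 to 0.17 for Nr5a2, -0.014 to 0.43 for Tcl1b5, -0.92 to 0.33 for Pfdn1, -0.60 to 0.38 for Vbp1 and -0.46 to 0.29 for Bcl2l1. They were -0.17 to 0.12 for Ccnb3 (0.0021 after centring), -0.039 to 0.49 for Cdc20, -0.19 to 0.11 for Tpx2 and -0.24 to 1.31 for mt-Rnr2. They were -0.28 to 0.37 for Mthfd1l, -0.039 to 0.66 for Mthfd2, -0.12 to 0.24 for Shmt2, -0.0055 to 0.28 for Bcl2l13 and -0.64 to 2.54 for Mcl1, and the cause was not tested. The planned edgeR and DESeq2 tests on recovered reads were not run.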

Other observations

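Other gene groups held single members with wide and separate values that did not pass in limma. Slc7a8, an amino acid transporter, read 4.88 and 11.2 at 4 h and 35.5 and 23.7 at 6 h on ribosomes, a change of 1.82 ± 0.46 (limma adjusted p 0.130), while its change in total RNA was -0.05. Slc35b3, a nucleotide sulfate transporter, read 10.1 and 16.3 and then 36.8 and 38.6, a change of 1.48. The zinc transporter Slc39a10 read 674 and 617 and then 932 and 1036, a change of 0.61 ± 0.13 (limma adjusted p 0.0931). Of the 111 solute carriers 29 were higher without overlap (26.1%, beside 20.7% of all genes) and 18 lower (16.2%, beside 21.1%). The RNA helicase Ddx5 read 144 and 124 and then 256 and 253, a change of 0.92, in a family of 43 DEAD and DEAH box genes with 5 higher (11.6%) and 11 lower (25.6%). Sf3a3, a splicing factor, had 0.78, and of 88 splicing genes 24 were higher (27.3%) and 16 lower (18.2%).

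Chromatin genes had 19 of 76 higher (25%) and 12 lower (15.8%) without overlap, beside 20.7% and 21.1% of all genes. The histone demethylase gene Kdm6a read 521 and 554 and then 799.6 and 866, a change of 0.63 ± 0.15 (limma adjusted p 0.121). In the 129 genes of vesicle traffic 34 were lower (26.4%) and 22 higher (17.1%), and Cope, a coatomer subunit, read 54.5 and 39.7 and then 15.3 and 24.4, a change of -1.22 on ribosomes and of -0.98 in total RNA. DNA repair genes had 14 of 67 higher (20.9%), close to the share over all genes, and 18 lower (26.9%), with Trp53 at 0.69. Among 61 oocyte-restricted genes, which include Tcl1 and Bcl2l10, 16 were higher (26.2%) and 15 lower (24.6%). Npm2, the egg chaperone of histones, had -0.46, with groups that overlapped at 1064 and 1290.0 and then 1065 and 683. In the pull-down libraries the 16S mitochondrial rRNA mt-Rnr2, which is not an mRNA, varied more between replicates than between times, at 232 and 684 and then 453 and 736.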
